A study of Homo sapiens with 36 samples.

Results

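22Rv1 cells cultured with MG63 cells were compared with 22Rv1 cells cultured alone, 5 RNA-seq libraries of the 36 in the series. 22Rv1 is a human prostate cancer (PCa) line that was derived from a xenograft; the study classes it with DU145 as osteolytic PCa (LPCa). MG63, an osteosarcoma line of human origin, stood for osteoblast (OB)-like cells. The 2 co-cultures and the 3 mono-cultures, taken by their labelled line and culture, received no RANKL and grew for 5 days in a horizontal co-culture device in which a filter between adjoining wells lets soluble factors pass between the cell types. The RNA is that of the prostate cancer cells by its label, but MG63 is human too, so a stray MG63 read could not be recognised by species. A further 2 mono-cultures of 22Rv1 with 50 ng/mL RANKL, the osteoclast-inducing cytokine, were used as a second control of direction. The same MG63 comparison in DU145 and in the bone-homing, osteoblastic (BPCa) lines C4-2 and C4-2B, each with 2 co-cultures and 3 mono-cultures, served for contrast. All 22Rv1 groups are 1 cell line in αMEM with fetal bovine serum, with no genetic change, and nothing in the labels says whether replicates came from separate cultures, so p-values measure the spread between these libraries, which may be technical.

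Proteins that enter the endoplasmic reticulum (ER) are folded by chaperones, among them HSPA5 (BiP). When unfolded protein accumulates, the sensors ATF6, IRE1 and PERK raise chaperones, ER-associated degradation and, through the transcription factor ATF4, amino acid transport and synthesis; together this is the unfolded protein response (UPR). Metallothioneins are small cysteine-rich proteins that bind zinc and copper and are induced by metal through the factor MTF1. Prostate luminal cells are secretory cells, and kallikreins are among the proteins they secrete.

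Members of the UPR and the metallothioneins were lower in co-culture, and the promoters of 5 of them are shown because they carry the best-known elements of those responses. The sequences are the 250 bases before the RefSeq start site on GRCh38.p14. HSPA5 is at chr9:125241344-125241593, minus strand, HERPUD1 at chr16:56931892-56932141, plus strand, HSP90B1 at chr12:103930160-103930409, plus strand, MT1X at chr16:56682220-56682469, plus strand, and MT2A at chr16:56608334-56608583, plus strand. Capitals mark the ER stress element ERSE (CCAAT and CCACG with 9 bases between them) or ERSE-II (ATTGG and CCACG with 1 base between them) in the first 3 and the core of the metal response element (MRE, TGCACNC or TGCGCNC) in the last 2, on either strand; both ER elements end in CCACG.
HSPA5: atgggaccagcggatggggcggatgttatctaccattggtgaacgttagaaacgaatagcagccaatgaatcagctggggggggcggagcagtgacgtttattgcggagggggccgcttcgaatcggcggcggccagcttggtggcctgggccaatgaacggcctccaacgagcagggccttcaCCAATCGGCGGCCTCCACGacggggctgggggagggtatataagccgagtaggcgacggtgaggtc
HERPUD1: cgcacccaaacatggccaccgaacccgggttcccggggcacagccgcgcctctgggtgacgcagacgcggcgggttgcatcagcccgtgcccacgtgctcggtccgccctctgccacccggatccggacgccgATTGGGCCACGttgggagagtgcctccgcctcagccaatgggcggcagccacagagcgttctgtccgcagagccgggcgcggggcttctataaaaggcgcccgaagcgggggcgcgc
HSP90B1: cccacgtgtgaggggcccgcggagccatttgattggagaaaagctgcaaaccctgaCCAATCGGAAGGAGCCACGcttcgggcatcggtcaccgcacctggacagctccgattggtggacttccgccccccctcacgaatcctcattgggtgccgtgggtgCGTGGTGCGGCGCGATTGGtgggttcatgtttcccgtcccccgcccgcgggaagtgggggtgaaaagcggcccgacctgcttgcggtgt
MT1X: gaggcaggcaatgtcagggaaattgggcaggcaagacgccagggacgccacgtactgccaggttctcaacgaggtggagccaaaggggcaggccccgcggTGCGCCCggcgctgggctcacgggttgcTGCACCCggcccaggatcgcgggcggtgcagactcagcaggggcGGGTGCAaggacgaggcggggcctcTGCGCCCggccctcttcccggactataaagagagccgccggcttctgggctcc
MT2A: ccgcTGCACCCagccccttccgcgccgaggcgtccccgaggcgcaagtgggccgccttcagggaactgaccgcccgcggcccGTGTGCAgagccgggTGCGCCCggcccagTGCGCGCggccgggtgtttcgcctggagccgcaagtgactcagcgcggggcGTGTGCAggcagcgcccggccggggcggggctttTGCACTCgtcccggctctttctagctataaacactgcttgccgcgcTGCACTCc

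Of 27305 promoters, 22 (0.0806%) held an ERSE and 14 (0.0513%) an ERSE-II. Among the 19 UPR genes tested that had a promoter sequence, 5 held an ERSE (HSPA5, HSP90B1, CRELD2, CALR and XBP1) and 3 an ERSE-II (SDF2L1, HYOU1 and HERPUD1). Of these 8 genes, 4 were called lower in co-culture, beside 16 of 22 in the whole UPR list and 11.6% of all genes tested. HSPA5, HSP90B1 and HERPUD1, shown above, are among those called, while CRELD2, CALR, XBP1 and SDF2L1 were not called. The MRE core is short, and 6751 promoters (24.7%) held it; it was found in all 3 metallothionein-list promoters available, MT1X with 4 matches, MT2A with 7, and the zinc exporter SLC30A1. The amino acid response element TGATGCAA was in 1 of 27 ATF4-list promoters (AARS1) against 0.820% of all, and the sterol element TCACNCCAC in 1 of 18 cholesterol-list promoters (SREBF2) against 0.875%. These matches describe letters in a window, not sites in use.

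Total values per library were 15132736 and 11776862 in the co-cultures, 23932472 to 32262316 in the mono-cultures and 10097501 to 11018229 in the mono-cultures with RANKL. Depth thus differed between co-culture and mono-culture but not in the same way between co-culture and RANKL mono-culture, and the part that depth or handling has in a difference from the mono-cultures was not tested. Levels are given as TPM, a transcript level per length and relative to the library total. Luminal markers were present in every library: the 14 of them, all tested, summed to 2402 and 2411 TPM in co-culture, 2139 to 2246 TPM in mono-culture and 2195 to 2253 TPM with RANKL, and 0 of them stayed under 1 TPM. Of 18 markers of MG63 and other mesenchymal cells, 4 passed the filter on low values; the sum of all 18 was 90.1 and 90.3 TPM in co-culture, 73.7 to 78.5 TPM in mono-culture and 70.2 to 71.2 TPM with RANKL. TWIST1, VIM and COL5A2, which 22Rv1 expressed alone as well, made up most of it. TWIST1, a transcription factor, was 27.3, 29.2 and 30.4 TPM in mono-culture, 28.5 and 30.1 TPM with RANKL and 40.6 and 43.7 TPM in co-culture (log2 fold change 0.64, adjusted p = 0.041); without any 1 of the 5 libraries it was no longer called (0.26 without co-culture replicate 2). The list has 8 of 18 markers under 1 TPM in both co-cultures, 9 in the mono-cultures and 7 with RANKL. Both co-cultures lay above all 5 controls for 5 of the 18 markers (TWIST1, COL5A2, COL3A1, COL6A3 and S100A4), below all 5 for 1 (PDGFRB) and overlapped them for 12. Of the fibrillar collagens, COL3A1 was 0.715 and 0.875 TPM in co-culture, 0.471, 0.431 and 0.443 TPM in mono-culture and 0.334 and 0.311 TPM with RANKL. COL1A1 was 4.61 and 3.78 TPM in co-culture, 2.99, 2.13 and 2.76 TPM in mono-culture and 3.40 and 3.95 TPM with RANKL. COL1A2 was 0.115 and 0.246 TPM in co-culture and 0.103, 0.157 and 0.134 TPM in mono-culture, and the matrix gene SPARC 0.0297 and 0.0865 TPM and 0.204, 0.0783 and 0.115 TPM. The part of MG63 RNA in the results was not tested. As in any bulk sample, fewer cells of a type and less RNA per cell cannot be told apart.

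With edgeR's quasi-likelihood test and Benjamini-Hochberg adjustment, used for every adjusted p given here, 1370 genes (11.7% of the 11687 tested) were higher and 1359 (11.6%) lower in co-culture than in mono-culture at an adjusted p under 0.05. Most changes were small: 85 genes rose and 85 fell by more than 2-fold, 0.727% of those tested in each direction, and the median change of the called genes was 1.36-fold. The filter, at least 100 counts in any 1 of the 5 libraries, was easier to meet in the deeper mono-cultures: 170 of the 1359 falls, and 55 of the 85 past 2-fold, reached it in mono-culture alone, and 7 of the 1370 rises, 6 of them past 2-fold, in co-culture alone. Such a gene was tested through the group in which it is high; this held for 0 of the 16 falls in the UPR list, 3 of 25 in the ATF4 list, 1 of 5 in the metallothionein list (MT1F) and 0 of 12 in the cholesterol list. Single libraries weighed on these counts: without co-culture replicate 1 they were 841 and 781, without co-culture replicate 2 657 and 585, and without replicate 2 of DU145 with MG63, which enters the shared estimate of spread, 2523 and 2313. That DU145 library had 3.24% of its total in mitochondrially encoded genes against 13.6% to 15.0% in the other DU145 libraries. Scaling by library total alone, without the trimmed-mean (TMM) factors, moved the median log2 fold change of all genes from -0.01 to -0.11 and the split to 844 higher and 2322 lower. On that same unadjusted TPM scale, both co-cultures lay above all 5 control libraries, with and without RANKL, for 11.4% of genes and below all 5 for 26.9%. Against the RANKL mono-cultures alone, 1073 genes were higher (9.18%) and 925 lower (7.91%), 1998 in all and 1113 to 1307 when any 1 of those 4 libraries was left out. Of the 2729 genes called against mono-culture, 2350 (86.1%) had the same sign against RANKL mono-culture, a comparison that shares the co-culture libraries; of the 170 past 2-fold, 156 did. RANKL mono-culture itself differed from mono-culture in 1151 genes that were higher (9.85%) and 1163 lower (9.95%).

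The UPR list was lower in co-culture. Of its 22 genes, all tested, 16 fell and 0 rose (background 11.6% and 11.7%), with a median log2 fold change of -0.50 beside -0.01 for all genes; against RANKL mono-culture 18 were lower and 0 higher, with a median of -0.71. Both co-cultures were below all 5 controls for 21 of the 22 genes, where 26.9% of all genes were. The log2 fold changes against mono-culture ranged from -1.45 for HYOU1 to -0.14 for DERL1.

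**Figure D1:**
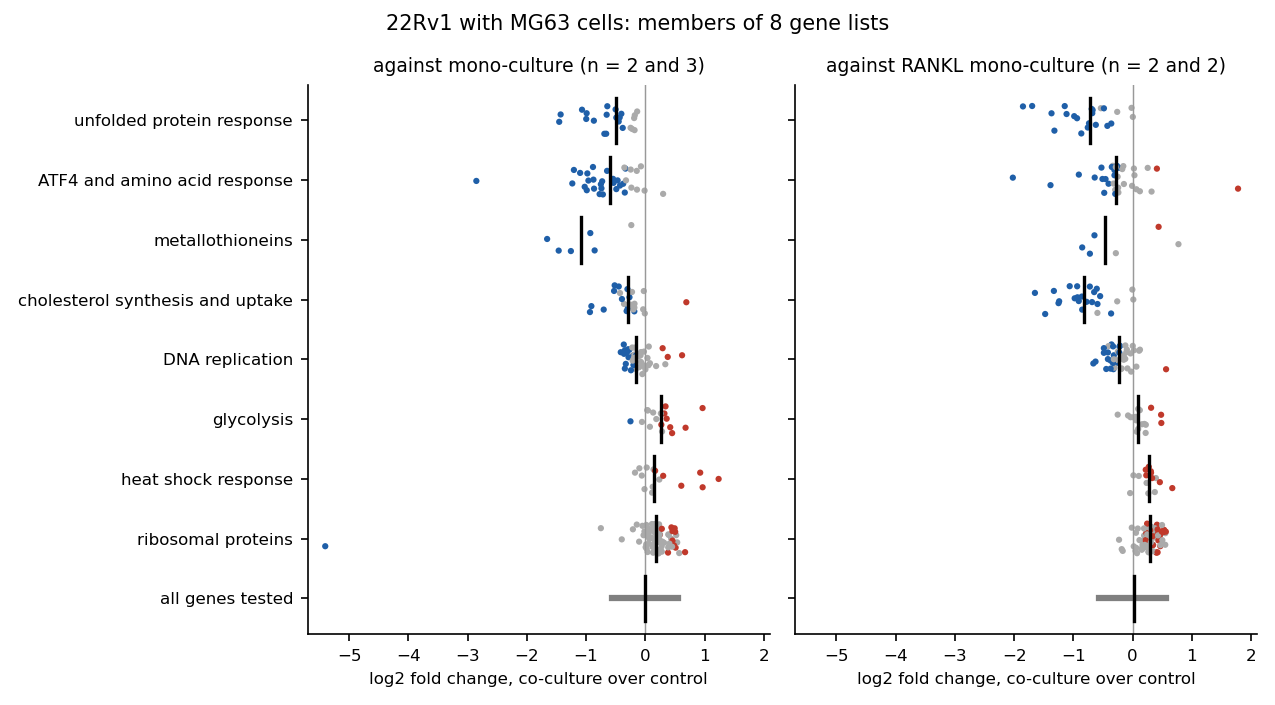
Each point is a gene of 1 of 8 lists and each black bar a median, on a log2 axis of co-culture over mono-culture (left) or over RANKL mono-culture (right); red and blue points passed an adjusted p of 0.05 upward and downward, and grey points did not. The grey bar spans the 5th to 95th percentile of all 11687 genes tested. The medians of the UPR, ATF4, metallothionein and cholesterol lists lie left of 0 in both panels, and the lone point near -5.40 is RPL10.

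HERPUD1, an ER membrane protein that supports the degradation of misfolded proteins, was at 185, 168 and 176 TPM in the mono-cultures, 221 and 243 TPM with RANKL and 60.4 and 61.4 TPM in the co-cultures. The co-cultures stood far below both kinds of control, which did not overlap with them (log2 fold change -1.43, standard error 0.15, adjusted p = 7.7e-06; against RANKL -1.85, adjusted p = 3.2e-10). HYOU1, an ER chaperone of the large HSP70 class, had the largest fall, from 14.9, 22.6 and 22.1 TPM in mono-culture and 20.4 and 16.6 TPM with RANKL to 7.13 and 6.37 TPM. Its mono-cultures were less even, and the log2 fold change was -1.45 (standard error 0.30, adjusted p = 0.0028). DNAJB9, a co-chaperone of HSPA5, fell from 19.8, 18.4 and 21.4 TPM to 9.24 and 8.37 TPM, and was at 22.2 and 19.2 TPM with RANKL. SEL1L, the adaptor of the HRD1 ubiquitin ligase, was 66.9, 65.2 and 64.8 TPM in mono-culture, 61.8 and 62.3 TPM with RANKL and 30.9 and 30.4 TPM in co-culture. The changes of DNAJB9 and SEL1L were -1.07 (adjusted p = 7.5e-07) and -0.997 (adjusted p = 8.7e-07) on the log2 scale.

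Outside the naming rule, the chaperones HSPA5, HSP90B1 and PDIA4 are given because they are the most familiar members, with their values already seen. HSPA5 was at 628, 611 and 659 TPM in mono-culture, 849 and 856 TPM with RANKL and 333 and 313 TPM in co-culture. The co-cultures held the lowest values and the RANKL mono-cultures the highest (log2 fold change -0.87, adjusted p = 2.2e-06 against mono-culture; -1.32, adjusted p = 1.1e-11 against RANKL). HSP90B1 (GRP94) fell from 2320.1, 2351 and 2439 to 1456 and 1284 TPM (log2 fold change -0.69, adjusted p = 0.008); without co-culture replicate 2 its adjusted p was 0.095. PDIA4, a disulphide isomerase, was 404, 408 and 413 TPM in mono-culture and 256 and 232 TPM in co-culture (log2 fold change -0.64, adjusted p = 4.6e-06). The members that missed the threshold were SDF2L1, CRELD2, CALR, XBP1, DERL1 and SEC61B, at log2 fold changes from -0.25 to -0.14; the lectin chaperone CALR was at -0.18 (adjusted p = 0.097) and the transcription factor XBP1 at -0.22 (adjusted p = 0.25), and both passed without replicate 2 of DU145 with MG63 (0.0022 and 5.8e-04). No UPR gene was higher at an unadjusted p under 0.05 or by DESeq2, and the count of falls stayed within 1.5 times its value under each alternative tried.

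**Figure D2:**
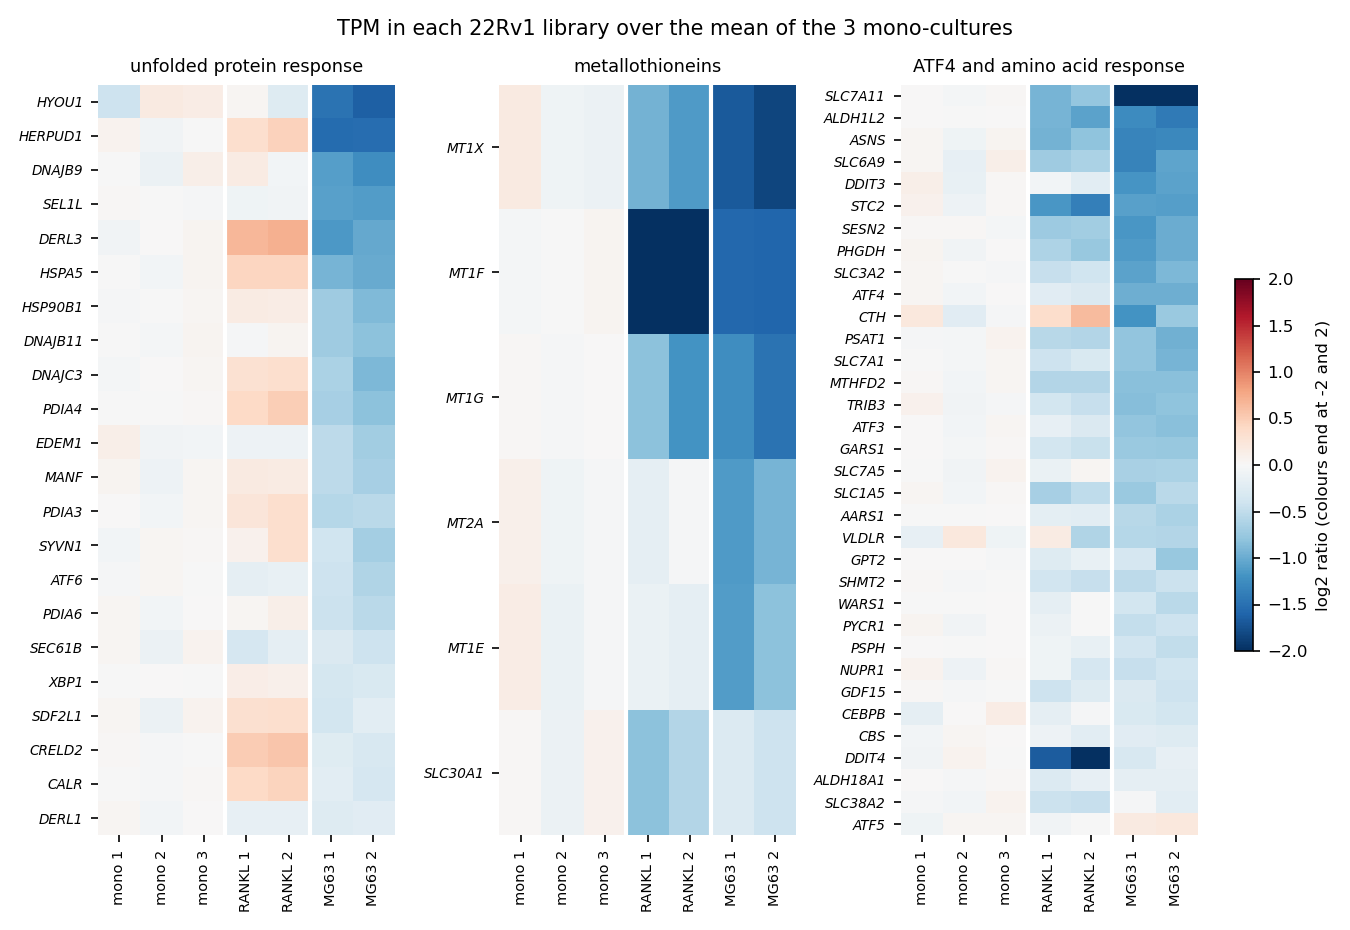
Colour gives the log2 ratio of each gene's TPM to the mean of the 3 mono-cultures, in each of 7 22Rv1 libraries (columns), for the UPR, metallothionein and ATF4 lists (rows, sorted by log2 fold change). In the MG63 columns all but SEC61B of the UPR genes are a deeper blue than every other column of their row, while the RANKL columns are mostly red or pale for the UPR and blue for many ATF4 genes and for MT1X, MT1F and MT1G.

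The ATF4 and amino acid list fell as well, but part of the fall was already present with RANKL. Of its 34 genes tested (CHAC1 was under the filter), 25 fell and 0 rose (background 11.6% and 11.7%; 1 rose at an unadjusted p under 0.05 and 1 by DESeq2), with a median log2 fold change of -0.60. Against RANKL mono-culture the median was -0.27, with 15 lower and 2 higher (background 7.91% and 9.18%), and RANKL mono-culture was itself at a median of -0.32 against mono-culture. SLC7A11, the light chain of the cystine-glutamate exchanger xCT, had the largest fall of the list: 29.6, 28.7 and 29.8 TPM in mono-culture, 15.4 and 17.1 TPM with RANKL and 3.85 and 3.703 TPM in co-culture. Its co-cultures were lower than every control (log2 fold change -2.85, standard error 0.14, adjusted p = 1.3e-08, and -2.02, adjusted p = 2.6e-09 against RANKL). SLC7A11 reached the filter in the mono-cultures alone, with 58 and 44 counts in co-culture, so these p-values are no support for a fall. ASNS, which makes asparagine, was at 306, 282 and 309 TPM in mono-culture, 155 and 171 TPM with RANKL and 120.0 and 122 TPM in co-culture, so that most of the distance was shared with RANKL (log2 fold change -1.21 against mono-culture, -0.35 against RANKL). The same held for the mitochondrial folate enzyme ALDH1L2, at -1.23 against mono-culture and -0.25 (adjusted p = 0.27) against RANKL. The glycine transporter SLC6A9 fell from 19.4, 16.9 and 20.4 to 7.45 and 9.07 TPM and was 11.6 and 12.2 TPM with RANKL.

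Outside the naming rule and with values already seen, the list's own regulators were added. ATF4 was at 650.1, 609 and 633 TPM in mono-culture, 538 and 518 TPM with RANKL and 321 and 320.4 TPM in co-culture. DDIT3 (CHOP), its stress-induced partner, was 151, 126 and 141 TPM in mono-culture, 134 and 119.7 TPM with RANKL and 61.3 and 66.4 TPM in co-culture. Both were lowest in the co-cultures, with log2 fold changes of -0.88 (adjusted p = 3.4e-06) and -1.02 (adjusted p = 1.5e-06) against mono-culture and of -0.64 (adjusted p = 1.3e-06) and -0.91 (adjusted p = 5.1e-07) against RANKL. The serine synthesis enzymes PHGDH and PSAT1 fell by 0.96 and 0.77 on the log2 scale (adjusted p = 1.1e-05 and 2.7e-06).

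All 5 metallothionein genes tested fell against mono-culture (background 11.6%), and 0 rose at an unadjusted p under 0.05 or by DESeq2. The list, which also holds SLC30A1, had 6 genes tested and 7 under the filter, with a median log2 fold change of -1.09 against mono-culture and -0.46 against RANKL, where 3 fell and 1 rose. MT1X was 161, 134 and 131 TPM in mono-culture, 74.04 and 64.7 TPM with RANKL and 44.2 and 39.7 TPM in co-culture, the lowest of the 3 groups (log2 fold change -1.66, standard error 0.12, adjusted p = 2.5e-07; -0.64, adjusted p = 5.9e-04 against RANKL). MT2A, the most abundant, was 369, 323 and 339 TPM in mono-culture, 305 and 336 TPM with RANKL and 157 and 179.8 TPM in co-culture. Here RANKL and mono-culture overlapped and the co-cultures stood apart (log2 fold change -0.93, adjusted p = 7.0e-05). MT1G went from 76.2, 73.2 and 74.9 to 31.5 and 26.7 TPM and was 42.4 and 32.6 TPM with RANKL. MT1F was 6.39, 6.57 and 6.83 TPM in mono-culture, 1.36 and 1.39 TPM with RANKL and 2.23 and 2.202 TPM in co-culture, lowest with RANKL, so its direction against RANKL was the opposite (0.77, adjusted p = 0.31). MT1E, outside the naming rule, fell by 0.85 (adjusted p = 2.9e-04). SLC30A1, also outside it, was at -0.24 (adjusted p = 0.11), and at 0.44 (adjusted p = 0.0065) against RANKL. Metallothionein genes are near-identical copies, and the split of reads among them is uncertain.

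**Figure D3:**
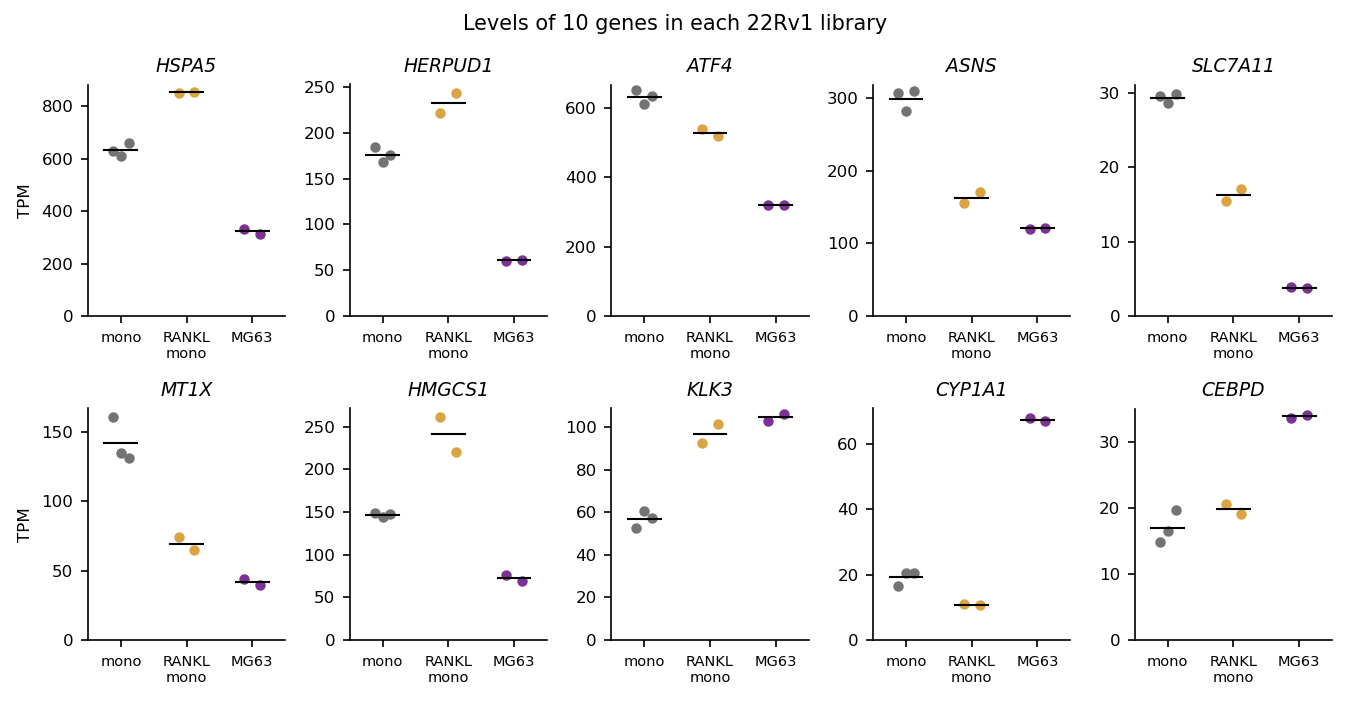
Each point is 1 library and each bar a group mean, in TPM on linear axes from 0, for 10 genes in mono-culture (n = 3), RANKL mono-culture (n = 2) and MG63 co-culture (n = 2). Both co-cultures lie below every control for HSPA5, HERPUD1, ATF4, ASNS, SLC7A11, MT1X and HMGCS1 and above every control for KLK3, CYP1A1 and CEBPD, while the RANKL points lie above mono-culture for HSPA5 and HMGCS1 and below it for ASNS, SLC7A11 and MT1X.

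Part of the cholesterol list fell in co-culture, and more of it against RANKL mono-culture. Of 24 genes tested, 12 fell and 1 rose against mono-culture (background 11.6% and 11.7%, median log2 fold change -0.29), and 20 fell and 0 rose against RANKL mono-culture (background 7.91% and 9.18%, median -0.81), which was itself 0.50 above mono-culture. Without co-culture replicate 2 the count of falls was 7, and without DU145 with MG63 replicate 2 it was 19. HMGCS1, an early synthase of the pathway, was 149, 144 and 148 TPM in mono-culture, 262 and 220.4 TPM with RANKL and 76.1 and 69.4 TPM in co-culture. Its co-cultures were the lowest group and its RANKL mono-cultures the highest (log2 fold change -0.91 against mono-culture, adjusted p = 1.2e-05). HSD17B7, a later enzyme of the pathway, fell by 0.93 (adjusted p = 0.0011), and the sterol reductase TM7SF2 was the single member that rose, at 0.69 (adjusted p = 0.0034, 0.057 without co-culture replicate 2, and -0.26 against RANKL).

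In the fatty acid list 4 of 16 genes fell (background 11.6%; 2 without co-culture replicate 2) and 1 rose, and 10 fell against RANKL (background 7.91%). The desaturase SCD was 134, 141 and 135 TPM in mono-culture, 418 and 324 TPM with RANKL and 85.8 and 79.8 TPM in co-culture (log2 fold change -0.62, adjusted p = 0.0084, and 0.083 without co-culture replicate 2). The elongase ELOVL5 and the acyl-CoA synthetase ACSL3 fell by 0.58 and 0.52 (adjusted p = 6.9e-04 and 5.2e-04) with the same sign against RANKL. The regulator SREBF1 was the one that rose, at 0.33 (adjusted p = 0.012), but it was at -0.32 against RANKL; without co-culture replicate 1 its adjusted p was 0.11.

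Some genes of DNA replication fell, by small amounts. Of 41 tested, 14 fell (34.1%, background 11.6%) and 3 rose, with a median log2 fold change of -0.16, and 18 fell and 1 rose against RANKL. The licensing factor CDC6 was 75.8, 73.2 and 80.9 TPM in mono-culture, 76.4 and 80.4 TPM with RANKL and 56.8 and 54.4 TPM in co-culture, below all controls (log2 fold change -0.36, adjusted p = 0.0028). Cyclin E1 (CCNE1), which drives entry into S phase, rose from 7.695, 9.52 and 8.65 to 12.4 and 12.4 TPM (log2 fold change 0.62, adjusted p = 7.2e-04), as did CDT1 (0.38), a licensing factor, although CDT1 was at -0.09 against RANKL and its adjusted p was 0.1 without co-culture replicate 2. The helicase subunit CDC45 was at -0.41 (adjusted p = 0.044), a call lost without any 1 of the 5 libraries (0.24 without co-culture replicate 2). The count of replication genes that fell was 9 under DESeq2's median-of-ratios size factors (RLE), 5 without co-culture replicate 2, and 5 to 9 when 1 of the 5 libraries was left out. In the mitosis list 4 of 40 rose and 4 fell (10.0% each way), near the background; without co-culture replicate 2 these were 1 and 0, and against RANKL 0 rose and 6 fell. The kinase AURKA rose by 0.46 (adjusted p = 0.0011), and the G1 cyclin CCND1 of the WNT target list fell from 1262, 1280.4 and 1227 TPM to 848 and 847 TPM (log2 fold change -0.47, adjusted p = 0.0022; -0.70 against RANKL). Of 23 p53 targets tested, 7 fell (30.4%) and 1 rose, with a median of -0.25, but against RANKL 2 fell and 2 rose, with a median of 0.12. The stress-induced SESN2 fell by 0.98 (adjusted p = 1.1e-05, and 0.096 against RANKL) and the antiproliferative BTG2 rose by 0.72 (adjusted p = 2.2e-06).

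Among the 10 largest rises were a pair of neighbouring cytochrome P450 genes. CYP1A1, a cytochrome P450 that oxidises aromatic compounds and is a known target of the aryl hydrocarbon receptor, was 16.7, 20.4 and 20.5 TPM in mono-culture, 10.9 and 10.8 TPM with RANKL and 67.9 and 66.9 TPM in co-culture. Its neighbour and paralogue CYP1A2 was 3.16, 3.33 and 2.596 TPM in mono-culture, 4.002 and 4.03 TPM with RANKL and 16.4 and 14.5 TPM in co-culture. In both genes the co-cultures stood above all 5 controls, as the naming rule required. The log2 fold changes against mono-culture were 1.91 (standard error 0.12, adjusted p = 7.3e-08) and 2.46 (standard error 0.18, adjusted p = 3.7e-07), and against RANKL 2.71 and 2.04 (adjusted p = 3.7e-10 and 3.1e-07). CYP1A2 reached the filter in the co-cultures alone. Other known targets of that receptor were looked at after these values were seen. TIPARP was at 9.24 and 9.103 TPM in co-culture and 9.18, 9.36 and 8.34 TPM in mono-culture (adjusted p = 0.58), and NQO1 at 51.1 and 51.8 TPM and 47.6, 43.7 and 45.9 TPM (adjusted p = 0.023, and 0.16 without co-culture replicate 2, 0.072 without co-culture replicate 1 and 0.078 without mono-culture replicate 2). CYP1B1 and AHRR did not pass the filter. CYP1B1 was 0.968, 0.146 and 0.195 TPM in mono-culture, 0.225 and 0 TPM with RANKL and 0.941 and 0.357 TPM in co-culture. AHRR was 1.02, 2.05 and 0.71 TPM in mono-culture, 1.66 and 1.38 TPM with RANKL and 0.763 and 0.305 TPM in co-culture.

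The largest rise was that of SMOC1, a secreted matricellular protein that binds calcium, from 6.77, 6.46 and 8.29 TPM in mono-culture to 46.6 and 35.8 TPM in co-culture, with 17.97 and 18.1 TPM under RANKL. The co-cultures lay above all 5 controls, as the naming rule required, and the RANKL mono-cultures lay above the mono-cultures. The log2 fold change was 2.62 against mono-culture (standard error 0.22, adjusted p = 1.7e-06) and 1.27 against RANKL (adjusted p = 0.0011). PDE4B, which degrades cyclic AMP, rose from 3.33, 2.94 and 2.46 to 9.69 and 10.1 TPM and the homeobox gene SIX2 from 2.09, 2.496 and 2.59 to 7.52 and 8.65 TPM (log2 fold changes 1.87 and 1.85, adjusted p = 1.9e-05 and 4.1e-04). Like PTMAP2, both reached the filter in co-culture alone. SPINK4, a secreted protease inhibitor, was 6.99, 5.21 and 6.49 TPM in mono-culture and 26.6 and 28.8 TPM in co-culture, but its call (adjusted p = 0.026) was lost without any 1 of the 5 libraries (0.099 without co-culture replicate 1). The remaining 4 of the 10 largest rises were the processed pseudogenes PPIAP22, NPM1P40 and PTMAP2 and the read-through gene NEDD8-MDP1, at 2.395, 2.13, 1.79 and 1.93. NPM1P40 and NEDD8-MDP1 lost their calls without co-culture replicate 2 (adjusted p = 0.13 and 0.16), and NEDD8-MDP1 without mono-culture replicate 2 (0.062). They share sequence with abundant parent genes, so these values are uncertain, and 0 of the 4 passed the test against RANKL.

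Among the largest falls, beside SLC7A11, the prostaglandin F receptor PTGFR was 11.4, 13.2 and 11.2 TPM in mono-culture, 9.72 and 8.86 TPM with RANKL and 2.66 and 2.94 TPM in co-culture. The carbonyl reductase DHRS2 was 62.9, 63.2 and 42.97 TPM in mono-culture, 52.9 and 60.5 TPM with RANKL and 9.87 and 15.00 TPM in co-culture. The lymphoid tyrosine kinase BLK was 3.63, 2.64 and 3.45 TPM in mono-culture, 1.55 and 1.61 TPM with RANKL and 0.609 and 0.709 TPM in co-culture. All 3 lay below both controls, as the naming rule required (log2 fold changes -1.99, -2.09 and -2.25 against mono-culture, and -1.65, -2.12 and -1.26 against RANKL). LAMP3, a lysosomal membrane protein, fell by 3.01 from 3.497, 3.99 and 3.26 TPM, or 88, 95 and 105 counts against 6 and 5 in co-culture. It reached the filter through 1 mono-culture, as did BLK, PGBD1 and FAM178B, while SLC7A11, PTGFR, DMGDH and KLRA1P reached it in all 3 mono-cultures and in 0 co-cultures. LAMP3 was as low with RANKL (0.584 and 0.415 TPM) as in co-culture (0.406 and 0.41 TPM), and the choline-pathway enzyme DMGDH was also nearer to RANKL (-1.89 against mono-culture, -0.51 against RANKL). PGBD1 was 2.11, 3.96 and 3.21 TPM in mono-culture, 2.89 and 3.08 TPM with RANKL and 0 and 0.845 TPM in co-culture. FAM178B was 2.45, 2.92 and 7.21 TPM in mono-culture, 2.79 and 9.22 TPM with RANKL and 1.19 and 0.433 TPM in co-culture. Both were low throughout and, like the pseudogene KLRA1P (-1.88), lost their calls without co-culture replicate 1 (adjusted p = 0.22, 0.075 and 0.071). Without co-culture replicate 2 FAM178B and KLRA1P were at adjusted p = 0.24 and 0.087, FAM178B was at 0.13 without mono-culture replicate 3, and PGBD1 at 0.059 without mono-culture replicate 2.

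RPL10, a ribosomal protein gene, had the largest fold among the genes called, and its values followed a different grouping. It reached the filter in the 3 mono-cultures alone, with 4575, 4087 and 7548 counts against 64 and 52 in co-culture. It was 182, 171 and 234 TPM in the mono-cultures, 4.55 and 6.08 TPM with RANKL and 4.25 and 4.38 TPM in the co-cultures (log2 fold change -5.403, adjusted p = 2.8e-06; -0.23, adjusted p = 0.87 against RANKL). Over the whole series, the 12 mono-cultures without RANKL of the 4 lines held 26.2 to 234 TPM and the other 24 libraries 2.34 to 14.5 TPM. In the 22Rv1 mono-cultures most of it came from 1 of its 17 transcripts in the table, ENST00000436473 of 657 bases, at 176, 163 and 209 TPM in mono-culture and 2.09 and 2.13 TPM in co-culture. Those 12 mono-cultures were also the deepest libraries of each line, and the part of depth or library handling in it was not tested.

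Genes of prostate luminal cells moved in both directions, and of the 14 luminal markers 7 rose (background 11.7%) and 4 fell (28.6%, background 11.6%; 2 without co-culture replicate 2), while 3 rose and 1 fell against RANKL. The secreted kallikrein KLK3, which encodes prostate-specific antigen, was 52.4, 60.5 and 57.5 TPM in mono-culture, 92.4 and 101 TPM with RANKL and 103 and 106 TPM in co-culture. Its co-cultures were the highest, but close to RANKL (log2 fold change 0.98, adjusted p = 1.7e-06; 0.19, adjusted p = 0.19 against RANKL). KLK2, a related kallikrein, was 141, 152 and 144 TPM in mono-culture, 149 and 153 TPM with RANKL and 242 and 248 TPM in co-culture. It rose against both controls (0.85 and 0.78, adjusted p = 6.0e-04 and 5.3e-05). SLC45A3 (prostein) went the other way, from 50.7, 61.7 and 53.6 TPM to 21.7 and 22.6 TPM (log2 fold change -1.22, adjusted p = 5.7e-07), but with RANKL it was 20.6 and 16.5 TPM, under the co-cultures. The transcription factor MAF fell by 1.01 against mono-culture (adjusted p = 0.02; 0.2 and 0.055 without co-culture replicate 1 or 2, and 0.066 without mono-culture replicate 3), reached the filter through 1 mono-culture, and was at 0.71 against RANKL. The luminal keratin KRT8 rose from 233, 230.0 and 239.6 to 364 and 366 TPM (log2 fold change 0.74, adjusted p = 0.0022), with 295 and 312 TPM under RANKL. In androgen and steroid metabolism 1 of 10 genes tested passed, the 5-alpha reductase SRD5A1, which fell by 0.49 (adjusted p = 2.2e-04). Of 9 neuroendocrine genes tested 2 rose, the granule protein CHGB by 0.71 and the enolase ENO2 by 0.34 (adjusted p = 0.0079 and 0.029); without co-culture replicate 2 these were 0.093 and 0.083, and ENO2 also lost its call without co-culture replicate 1 (0.19) and mono-culture replicate 1 or 3 (0.084 and 0.069).

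The heat shock list holds chaperones of the cytosol, their co-chaperones and the mitochondrial chaperones HSPD1 and HSPE1. Of 15 tested, 6 rose (background 11.7%) and 0 fell (1 fell at an unadjusted p under 0.05 and 1 by DESeq2), with a median log2 fold change of 0.14, and 8 rose against RANKL. HSPA1B, an inducible HSP70, was 176, 167 and 169 TPM in mono-culture, 202 and 212 TPM with RANKL and 311 and 312 TPM in co-culture, above all controls (log2 fold change 0.97, adjusted p = 3.1e-06; 0.67 against RANKL). The small chaperone HSPB1 was 312, 333 and 305 TPM in mono-culture, 469.8 and 511 TPM with RANKL and 514 and 606 TPM in co-culture. The co-chaperone BAG3 was 20.6, 19.9 and 20.05 TPM in mono-culture, 23.4 and 28.1 TPM with RANKL and 28.3 and 28.96 TPM in co-culture. Both passed the test against mono-culture (log2 fold changes 0.93 and 0.61, adjusted p = 5.8e-06 and 8.9e-06), and against RANKL they were at 0.27 and 0.23 (adjusted p = 0.035 and 0.048). HSPA1A, a near-identical copy of HSPA1B whose reads cannot be cleanly separated from it, was at 1.24 (adjusted p = 8.3e-04).

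In glycolysis 8 of 17 genes rose (47.1%, background 11.7%) and 1 fell against mono-culture, with a median of 0.27, but 3 rose and 0 fell against RANKL (background 9.18% and 7.91%). SLC16A3 (MCT4), which exports lactate, was 10.8, 12.5 and 11.4 TPM in mono-culture, 16.5 and 15.4 TPM with RANKL and 19.3 and 22.9 TPM in co-culture (log2 fold change 0.97, adjusted p = 2.0e-05; 0.48, adjusted p = 0.013 against RANKL). ALDOA, the most abundant aldolase, rose from 669.5, 695 and 661 TPM to 849 and 836 TPM and was higher still with RANKL at 912 and 966 TPM. ALDOC rose by 0.68 and PFKP, a phosphofructokinase, by 0.45 (adjusted p = 0.008 and 0.032); these calls were lost without co-culture replicate 1 for ALDOC (0.076) and, for PFKP, without co-culture replicate 2 (0.29) or mono-culture replicate 1 or 3 (0.071 and 0.1). The count of rises was 4 without co-culture replicate 2 and 5 under library total scaling. Among 22 hypoxia genes 1 rose (4.55%) and 2 fell (9.09%), no more than the background; VEGFA, the angiogenic factor, was 79.5, 87.8 and 84.6 TPM in mono-culture and 56.1 and 57.6 TPM in co-culture, with 56.9 and 58.2 TPM under RANKL (log2 fold change -0.46, adjusted p = 0.0054, and 0.06 without co-culture replicate 1).

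Of 78 ribosomal protein genes 11 rose, 14.1% beside the 11.7% of all genes, and 1, RPL10, fell, with a median of 0.18. Against RANKL 25 rose, where the background was 9.18%. Over the alternatives the count of rises ran from 3 without co-culture replicate 2 to 46 without replicate 2 of DU145 with MG63. The 5 called genes of the highest level were RPS2, RPL12, RPL17, RPS21 and the tubulin TUBA1B. RPS2 was 3649.7, 3668 and 3683 TPM in mono-culture and 4563 and 5001 TPM in co-culture (log2 fold change 0.49, adjusted p = 5.3e-04), but 4497 and 4417 TPM with RANKL. RPL17 was 2497, 2468 and 2515 TPM in mono-culture, 2339 and 2092 TPM with RANKL and 2962 and 3101 TPM in co-culture (0.38). TUBA1B was 2197, 2204 and 2280.1 TPM in mono-culture, 2464 and 2568 TPM with RANKL and 2618 and 2623 TPM in co-culture (0.34). RPL12 (0.24) and RPS21 (0.51) were no longer called without co-culture replicate 2 (adjusted p = 0.19 and 0.069), and RPL12 also not without mono-culture replicate 1 or 2 (0.054 and 0.056). Of the 13 genes encoded by mitochondrial DNA, 0 passed the test in either direction (edgeR), 0 at an unadjusted p under 0.05 and 0 by DESeq2, with a median of 0.25. This rests on the shared spread: without replicate 2 of DU145 with MG63, the library low in mitochondrial genes, 9 rose and 1 fell, and with the 5 22Rv1 libraries alone 8 rose and 1 fell. MT-CO1, an oxidase subunit, was 16314, 18216 and 17074 TPM in mono-culture and 19333 and 18794 TPM in co-culture (log2 fold change 0.25, adjusted p = 0.57, and 4.4e-04 without that DU145 library). Against RANKL it was at -0.08.

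The counts in the signalling, cell-surface and redox lists that follow are small and stand beside a background of 11.7% higher and 11.6% lower, so 1 or 2 genes of a list in a direction are near it. Against RANKL, where the background was 9.18% higher and 7.91% lower, fewer genes passed in several of these lists: 3 NF-kB targets rose, 1 integrin or laminin gene rose, 1 protease or inhibitor rose and 0 fell, 4 epithelial-mesenchymal genes rose and 2 fell, and 4 NRF2 targets rose and 1 fell. In other lists more passed: 6 acute-phase and STAT3 genes rose and 1 fell, and 3 WNT genes rose and 4 fell. In the acute-phase and STAT3 list 4 of 12 tested genes rose (33.3%) and 1 fell (8.33%). CEBPD, a transcription factor of the acute-phase response, was 14.9, 16.5 and 19.7 TPM in mono-culture, 20.6 and 19.1 TPM with RANKL and 33.6 and 34.1 TPM in co-culture. JUNB, a subunit of AP-1, was 30.8, 30.4 and 29.3 TPM in mono-culture, 34.9 and 35.7 TPM with RANKL and 53.7 and 56.6 TPM in co-culture. STAT3 itself was 21.7, 24.01 and 19.6 TPM in mono-culture, 22.02 and 22.96 TPM with RANKL and 29.6 and 27.9 TPM in co-culture. In all 3 genes the co-cultures were above every control (log2 fold changes 1.09, 0.97 and 0.51, adjusted p = 2.7e-06, 3.7e-07 and 0.0013). The kinase PIM1 fell by 0.58 (adjusted p = 0.0021, 0.051 without co-culture replicate 2). Of 10 NF-kB targets tested 5 rose (2 and 1 without co-culture replicate 1 or 2) and 0 fell (0 at an unadjusted p under 0.05 and 0 by DESeq2), among them BCL3, an atypical inhibitor of NF-kB, from 9.38, 12.6 and 10.9 TPM to 22.6 and 19.1 TPM (log2 fold change 1.04, adjusted p = 5.1e-05; 1.13 against RANKL). The other 19 NF-kB targets of the list, among them the chemokine CCL2, were under the filter. Of 16 interferon genes 5 rose (31.2%; 3 without co-culture replicate 1) and 1 fell (6.25%), and against RANKL 1 rose and 5 fell. IFI35 rose by 0.99 (adjusted p = 0.0047, and 0.06 without co-culture replicate 1), while HLA-B at 3.11, 3.44 and 3.09 TPM in mono-culture was 5.19 and 5.42 TPM in co-culture and 5.83 and 5.59 TPM with RANKL. Of 18 immediate early genes 5 rose (27.8%) and 2 fell (11.1%), and 4 rose and 5 fell against RANKL, with IER3 at 4.801, 4.52 and 4.98 TPM in mono-culture, 4.59 and 5.92 TPM with RANKL and 11.8 and 12.6 TPM in co-culture (1.45, adjusted p = 3.5e-07).

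Of the genes the study names for its RNA-seq in PCa cells, 1 of 10 passed the filter in 22Rv1. The sulphotransferase GAL3ST1 was 4.64, 3.78 and 4.58 TPM in mono-culture, 4.68 and 6.27 TPM with RANKL and 7.58 and 8.72 TPM in co-culture (log2 fold change 1.01, adjusted p = 0.012, and 0.12 without co-culture replicate 2). The serpin SERPINA3 was at 0.171 and 0.141 TPM and the lipocalin LCN2 at 0.226 and 0 TPM in the 2 co-cultures. CCL2, CXCL10 and UBD were listed at 0 in all 7 libraries. MSANTD3-TMEFF1, a read-through transcript, was 0.00306, 0.00256 and 2.79 TPM in the mono-cultures and 2.16 and 0.00264 TPM in the co-cultures, high and low within each group.

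In the IGF axis 3 of 8 genes fell and 1 rose. IGFBP3, a carrier that sequesters IGF, was 326, 307 and 357 TPM in mono-culture, 663 and 852 TPM with RANKL and 144 and 159 TPM in co-culture. The co-cultures were lowest and RANKL highest (log2 fold change -1.02, adjusted p = 6.9e-07; -2.24, adjusted p = 5.2e-10 against RANKL). The receptor substrate IRS2 rose from 20.8, 20.5 and 20.6 to 37.96 and 37.8 TPM (0.98, adjusted p = 5.5e-05), and the ligand IGF1 fell from 23.7, 26.1 and 29.3 to 14.7 and 13.1 TPM but was 9.52 and 11.7 TPM with RANKL. In the ERBB list 3 of 14 rose (21.4%) and 2 fell (14.3%): the ligand AREG rose from 6.66, 4.54 and 7.62 to 13.4 and 12.5 TPM (1.13, adjusted p = 0.0021; 0.996 against RANKL) and the feedback inhibitor ERRFI1 fell by 0.84 (adjusted p = 4.9e-04). In the TGF-beta and YAP list 1 of 13 rose, the ligand TGFB1 (0.85, adjusted p = 8.1e-04), and 2 fell, the inhibitor SMAD7 (-0.77) and the YAP-target AJUBA (-0.90). AJUBA was 11.3 and 13.1 TPM with RANKL and 13.2 and 12.99 TPM in co-culture, so its direction turned against RANKL (0.18, adjusted p = 0.48). Of 19 BMP genes 3 rose (15.8%) and 4 fell (21.1%; 1 without co-culture replicate 1 or mono-culture replicate 3), with the decoy receptor BAMBI at 0.91 (adjusted p = 6.1e-05) and SMAD9, a BMP signal transducer, at -0.60 (adjusted p = 9.5e-05). Of 11 WNT genes 1 rose, the inhibitor NKD2 (1.04, adjusted p = 0.0021), and 2 fell, CCND1 and the receptor FZD8 (-0.50, adjusted p = 0.036, lost without any 1 of the 5 libraries, 0.22 without co-culture replicate 1).

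Of 16 epithelial-mesenchymal genes tested 6 rose (37.5%) and 3 fell (18.8%; 1 without co-culture replicate 1 or 2). The tight junction gene CLDN4 was 48.02, 52.7 and 53.2 TPM in mono-culture, 101 and 108 TPM with RANKL and 110.3 and 110.1 TPM in co-culture. Fibronectin (FN1) was 23.3, 18.9 and 19.7 TPM in mono-culture, 34.8 and 40.6 TPM with RANKL and 47.4 and 41.6 TPM in co-culture. For both the step from mono-culture was large (1.204 and 1.21, adjusted p = 1.9e-07 and 4.1e-07) and the step from RANKL small (0.16 and 0.32, adjusted p = 0.19 and 0.038). The mesenchymal filament VIM fell by 0.47 (adjusted p = 0.021); it lost its call without co-culture replicate 1 or 2 (0.067 and 0.17) and mono-culture replicate 2 or 3 (0.067 and 0.055), and was at 0.37 against RANKL. Of 11 integrins and laminins 3 rose (1 without co-culture replicate 2, when LAMB2 and LAMC1 lost their calls) and 0 fell (0 at an unadjusted p under 0.05 and 0 by DESeq2), with ITGB5, a receptor subunit for vitronectin, at 75.7, 64.3 and 66.8 TPM in mono-culture, 81.9 and 81.8 TPM with RANKL and 152 and 146 TPM in co-culture (1.22, adjusted p = 2.2e-04; 0.94, adjusted p = 3.8e-04 against RANKL). Of 14 proteases and inhibitors 5 rose (35.7%) and 2 fell (14.3%); without co-culture replicate 1 these were 3 and 0, without co-culture replicate 2 they were 2 and 1, and the lysosomal protease CTSB rose by 0.55 (adjusted p = 0.0011). In the bone matrix list 2 of 22 genes were tested and 0 passed (edgeR; 1 fell at an unadjusted p under 0.05 and 0 by DESeq2). Alkaline phosphatase (ALPL) was 5.97, 6.76 and 7.16 TPM in mono-culture and 2.61 and 4.06 TPM in co-culture (log2 fold change -0.89, adjusted p = 0.088). Its adjusted p was 0.011 with the 5 22Rv1 libraries alone, 0.029 with length restored and 0.046 without replicate 2 of DU145 with MG63, but ALPL (40 and 48 counts in co-culture) and TRAF6, the other gene tested, reached the filter in mono-culture alone, so these p-values are no support for a fall. Of 5 secreted osteoblastic factors 2 rose, KLK3 and TGFB1, and 1 fell, IGF1, but 0 passed against RANKL, where TGFB1 was at 0.37 (adjusted p = 0.22) and IGF1 turned to 0.47. Of 20 NRF2 targets and ferritin genes 7 rose (35.0%; 4 without co-culture replicate 2) and 3 fell (15.0%), with the peroxiredoxin PRDX1 at 0.44 (adjusted p = 9.9e-04) and GCLC, the catalytic subunit of the first enzyme of glutathione synthesis, at -1.05 (adjusted p = 0.0012). Of 7 replication-dependent histone genes tested 0 passed (edgeR), with 1 higher at an unadjusted p under 0.05 and 0 by DESeq2; 2 rose without replicate 2 of DU145 with MG63.

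The MG63 effect in 22Rv1 was compared with the mean effect in DU145, C4-2 and C4-2B by an interaction term, and it differed for 994 genes, 538 more positive in 22Rv1 (4.60%) and 456 more negative (3.90%). The total was 542 and 419 without co-culture replicate 1 or 2, and 2682 without replicate 2 of DU145 with MG63. In the UPR list 10 of 22 genes were more negative and 0 more positive in 22Rv1. In the ATF4 list 22 of 34 were more negative and 0 more positive, and in the metallothionein list 4 of 6 were more negative and 0 more positive. By contrast 3 of 24 cholesterol genes were more positive in 22Rv1 and 0 more negative, and 16, 8 and 8 cholesterol genes fell in DU145, C4-2 and C4-2B (background 15.6%, 4.81% and 3.89%).

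**Figure D4:**
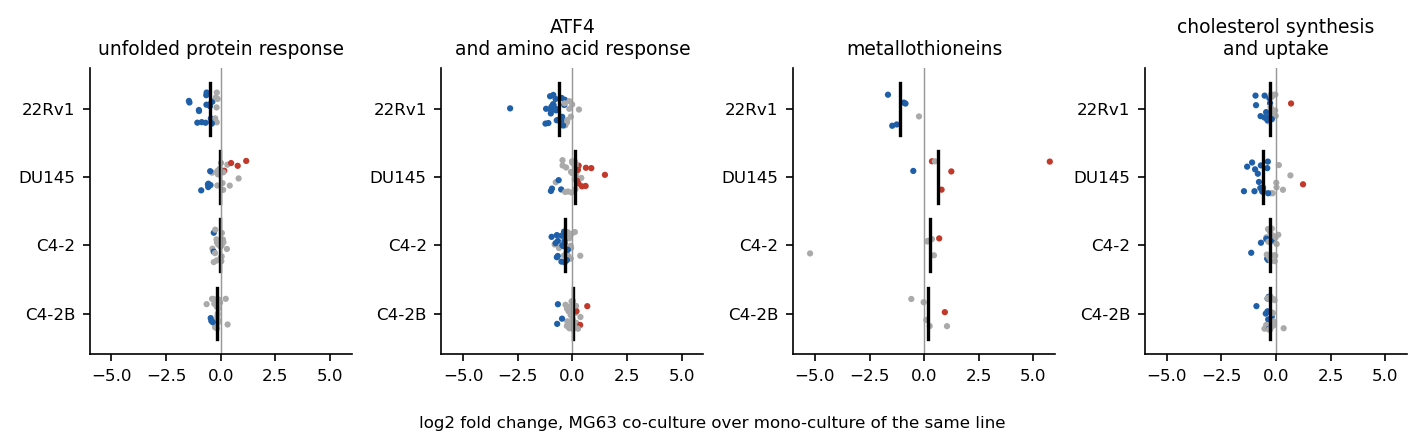
Each point is a gene and each black bar a median, on a log2 axis of MG63 co-culture over mono-culture of the same line (2 and 3 libraries per line); red and blue points passed an adjusted p of 0.05 upward and downward. Metallothionein points lie left of 0 in 22Rv1 and mostly right of it in the other 3 lines, while the cholesterol medians lie left of 0 in all 4 lines.

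The median log2 fold change of the UPR list was -0.50 in 22Rv1, -0.02 in DU145, -0.04 in C4-2 and -0.17 in C4-2B. All DU145 values include co-culture replicate 2, the library low in mitochondrially encoded genes (3.24%), and its part in them was not tested. HSPA5 was at -0.87 in 22Rv1 and at 0.11, 0.13 and -0.16 in DU145, C4-2 and C4-2B (difference -0.89, standard error 0.09, adjusted p = 1.9e-05). HERPUD1 was at -0.39, -0.26 and -0.18 in those 3 lines (difference -1.15, adjusted p = 4.4e-04). For the ATF4 list the medians were -0.60, 0.11, -0.35 and 0.01 in the same order of lines, so that C4-2 shared part of the fall: 17 of its 34 genes fell there. ASNS was at 0.44, -0.50 and 0.10 in DU145, C4-2 and C4-2B (difference -1.22, adjusted p = 3.6e-07), and SLC7A11 at -0.98, -0.67 and 0.03 (difference -2.31, adjusted p = 2.8e-07). In 22Rv1, SLC7A11 reached the filter in mono-culture alone, so its adjusted p is no support for a difference between lines. MT2A fell in 22Rv1 and had log2 fold changes of 1.24, 0.69 and 0.95 in DU145, C4-2 and C4-2B (difference -1.89, standard error 0.14, adjusted p = 1.2e-06).

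Among genes that differed between lines and were called in 22Rv1, the 5 largest positive differences were those of SMOC1, PDE4B, AEBP1, TRGC1 and VWA7; AEBP1 was called in 22Rv1 only with all 5 libraries (0.23 without co-culture replicate 1). SMOC1 was at 0.74 in DU145 (difference from the mean of the 3 lines 4.17, adjusted p = 5.1e-04), and VWA7 was at -1.59, 0.10 and 0.26 in DU145, C4-2 and C4-2B against 1.54 in 22Rv1 (difference 1.95, adjusted p = 1.1e-04). The filter on low counts was set on 22Rv1, and in C4-2B SMOC1 had 0 counts in both co-cultures and 4, 13 and 6 in mono-culture, with at most 12 counts in a C4-2 library. PDE4B had at most 2 counts in a C4-2B library and 6 in a C4-2 library, AEBP1 at most 14 counts in a library of the other 3 lines, and TRGC1 at most 3 counts in DU145. The differences of these 4 genes therefore depend in part on fitted values of near-empty groups and are not sizes of effect. The 5 largest negative differences were those of RELN, LAMP3, MED15P9, HLA-DQB1 and PTGFR. All 5 reached the filter in mono-culture alone, where they are high, so their place here is a description. The pseudogene MED15P9 had 0 counts in the 3 DU145 mono-cultures and 2 and 4 in the co-cultures, so its difference is no size of effect either. In 22Rv1 it lost its call without co-culture replicate 1 or 2 (0.21 and 0.1) and mono-culture replicate 1 or 2 (0.061 and 0.1). RELN, a secreted guidance protein, fell from 16.2, 17.02 and 14.8 to 3.18 and 1.65 TPM in 22Rv1 and was 1.05 and 1.02 TPM with RANKL (difference from the other lines -3.56, adjusted p = 9.0e-04). It was at 1.296 against RANKL and had at most 11 counts in a library of the other 3 lines. HLA-DQB1, an antigen-presenting chain, was 13.5, 15.5 and 23.03 TPM in mono-culture, 40.9 and 50.9 TPM with RANKL and 5.02 and 7.65 TPM in co-culture (difference -2.81, adjusted p = 0.001); its call in 22Rv1 was lost without co-culture replicate 1 (0.12). PTGFR, at -1.99 in 22Rv1, was at -0.14 and -0.07 in C4-2 and C4-2B and had between 2 and 5 counts in each DU145 library, so its difference from the mean of the 3 lines (-2.44, adjusted p = 4.8e-06) includes a DU145 value from few counts.

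Among NF-kB targets 7, 6 and 5 of the 10 genes rose in DU145, C4-2 and C4-2B (background 17.7%, 5.61% and 3.75%), beside 5 in 22Rv1, and the effect was more negative in 22Rv1 for 3. CEBPD was at 1.09 in 22Rv1 and at 1.24, 1.26 and 1.13 in DU145, C4-2 and C4-2B, with a difference of -0.12 (standard error 0.12, adjusted p = 0.62). SOD2, the NF-kB-induced mitochondrial superoxide dismutase, had a less positive change in 22Rv1, where it was at -0.056 with length restored and its call was lost without co-culture replicate 1 or 2 (0.075 and 0.14) or mono-culture replicate 2 (0.059): it was at 0.26 there and at 1.178, 0.89 and 0.69 in the others (difference -0.66, adjusted p = 2.6e-04). KLK3 was at 0.98 in 22Rv1 and 0.37, -0.26 and -0.36 in the others (difference 1.065, adjusted p = 1.2e-05).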

How the data were processed

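Poly(A) RNA of 4 human prostate cancer lines was sequenced on a DNBSEQ-G400 from strand-specific libraries (36 in all). The authors quantified transcripts with kallisto and summarised them with tximport; the submitters' processing notes name FastQC, kallisto and hg19. The deposited values are estimated counts of the scaled TPM kind, in which transcript length has been removed and each library restored to its total. A library's values divided by its total are therefore TPM; multiplying low values by effective length gave whole numbers (within 0.1) for 78.4% to 85.2% of them, against 15.7% to 21.2% as deposited.

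Each of 159837 transcripts was kept once, values were summed over 27852 symbols and rounded, and 6878 transcripts without a symbol stayed out of the tests. Genes with at least 100 in any of the 5 22Rv1 libraries were tested (11687) with edgeR 4.0.16 (R 4.3.3): TMM, quasi-likelihood test, 20 libraries without RANKL in 8 groups, Benjamini-Hochberg adjustment, calls under 0.05 (common biological coefficient of variation 0.103, 12 residual degrees of freedom). All 36 libraries were fitted for RANKL comparisons. Depth ranged from 9593426 to 36719047. Named genes were the 10 largest rises and falls past 2-fold beyond all 5 controls, the 5 called genes of highest level, up to 4 called genes per list (the 2 of highest level where none was called), the 5 largest differences between lines in each direction, and the study's genes. Genes outside this rule are said to be so. Members, the 35 lists and the tests were chosen with earlier results of these data known. Other settings (normalization, filter, tool including DESeq2 1.42.0, libraries fitted, control, replicate block, libraries left out) and one chosen after seeing the data (length restored) are in the closing section, and scripts were tested on simulated data. Promoters came from RefSeq GRCh38.p14, which is not the build of the notes and was used for sequence only. Results for a gene list and some single genes are not reported here.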

Additional observations from a re-analysis of the deposited data

Results flagged for a closer look

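The effect of MG63 cells in 22Rv1 differed from the mean effect in DU145, C4-2 and C4-2B for 75 of the 156 named genes tested, by an interaction term at an adjusted p under 0.05 (edgeR's quasi-likelihood test, 2 co-cultures and 3 mono-cultures per line). Over all genes tested, 4.60% were more positive and 3.90% more negative in 22Rv1. The named genes were chosen in part by the size of their change in these data, so their share is no result about them. Each value is the difference of log2 fold changes, 22Rv1 minus that mean; a positive value is a more positive effect in 22Rv1.

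In the UPR list the differences were -0.89 for HSPA5, -1.15 for HERPUD1, -0.70 for DNAJB9, -0.58 for SEL1L, -0.68 for HSP90B1, -0.68 for PDIA4 and -0.58 for XBP1, all more negative in 22Rv1. In the ATF4 list they were -2.31 for SLC7A11, -1.22 for ASNS, -0.83 for ALDH1L2, -1.03 for SLC6A9, -0.84 for ATF4, -0.87 for DDIT3, -1.05 for PHGDH, -0.60 for PSAT1, -0.56 for STC2 and -0.81 for SESN2. Metallothioneins gave -2.07 for MT1X, -1.55 for MT1F, -1.89 for MT2A and -1.12 for MT1E. Of the 15 heat shock genes 4 were more positive and 1 more negative in 22Rv1 (background 4.60% and 3.90%, median difference 0.038), with 0.55 for HSPA1B, 0.51 for HSPB1 and 0.50 for BAG3.

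Among metabolic genes the differences were 1.35 for SLC16A3, 1.35 for ALDOC, 0.62 for PFKP, 0.58 for SREBF1, 0.38 for PRDX1, 0.43 for ERO1A, -0.48 for CCNG2, -0.32 for SRD5A1, 1.44 for CYP1A2 and 0.82 for CYP1A1. Prostate genes gave 1.065 for KLK3, 0.95 for KLK2, 0.65 for KRT8 and -0.73 for SLC45A3. In the cell cycle the differences were -0.70 for CDC45, -0.39 for CDC6, 0.42 for AURKA, -0.57 for CCND1 and 0.34 for BTG2.

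Signalling genes gave -0.66 for SOD2, -0.50 for PIM1, 0.43 for HLA-E, 0.96 for TGFB1, -0.45 for SMAD9, -1.48 for IGFBP3, 0.84 for IRS2, -0.82 for IGF1, -0.65 for ERRFI1, 1.08 for DUSP4, 0.88 for PHLDA1, 0.64 for IER3 and 0.83 for DUSP1. At the cell surface and in proteolysis they were 1.201 for CLDN4, 1.01 for ITGB5, 0.48 for CTSB and 0.58 for ST14, and the granule gene CHGB gave 1.16. Among the largest changes of 22Rv1 the differences were 4.17 for SMOC1, 2.83 for PDE4B, -3.43 for LAMP3, -1.78 for DHRS2, -2.44 for PTGFR, -1.88 for DMGDH and -2.31 for RPL10. The remaining differences were 1.55 for GAL3ST1, -3.56 for RELN, -2.95 for MED15P9, -2.81 for HLA-DQB1, 2.41 for AEBP1, 2.26 for TRGC1 and 1.95 for VWA7. Of the 75 genes, 20 had a library under 20 counts in at least 1 of the other 3 lines. Among them were CYP1A2, LAMP3, DHRS2, PTGFR, DMGDH, CHGB, TGFB1, IRS2, IGF1, ALDH1L2, ST14, GAL3ST1, RELN, HLA-DQB1 and MT1E. Their differences rest in part on few counts. A further 4 of the 20 (SMOC1, PDE4B, AEBP1 and TRGC1) had 0 counts in both co-cultures of a line, so the differences of these 4 depend on the fit and are no measure of size. The same holds for MED15P9, with 0 counts in the 3 DU145 mono-cultures. RPL10, LAMP3, SLC7A11, PTGFR, DMGDH, PHLDA1, MT1F, RELN, MED15P9 and HLA-DQB1 were at the filter's minimum in 22Rv1 mono-culture alone, and CYP1A2 and PDE4B in co-culture alone.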

How the results depend on the processing

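Counts of calls leaned on the scaling, on which libraries share the spread and on single libraries. The 1370 higher and 1359 lower genes became 844 and 2322 under library total scaling, 2273 and 2060 with the 5 22Rv1 libraries alone, 101 and 105 under a 2-fold threshold with an unadjusted p, and 85 and 85 under a 2-fold threshold with an adjusted p. Leaving out 1 library gave 657 to 2523 higher and 585 to 2313 lower. The 994 genes that differed between lines became 197 and 119 under those 2-fold thresholds, 1512 with length restored, and 419 to 2682 when 1 library was left out. The 1998 genes called against RANKL mono-culture became 1113 to 1307 when 1 library was left out.

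With RANKL mono-culture as control the ATF4 list had 15 falls instead of 25, the cholesterol list 20 instead of 12, the metallothionein list 3 instead of 5, glycolysis 3 rises instead of 8 and ribosomal proteins 25 instead of 11. Glycolysis had 5 rises under library total scaling and 5 without a filter, DNA replication 9 falls instead of 14 under RLE, and ribosomal proteins 17 rises by DESeq2, 38 with the 5 libraries alone and 18 with all 36 libraries. Leaving out 1 library gave 7 to 19 falls for cholesterol, 5 to 21 for DNA replication, 4 to 10 rises for glycolysis and 3 to 46 for ribosomal proteins. The UPR and heat shock counts stayed within 1.5 times under all of these; the cause of the other shifts was not tested.

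Of 156 named genes tested, 26 changed sign with RANKL mono-culture as control, and a further 44 kept their sign but lost their call. Of the genes that changed sign and had been called against mono-culture, all but SREBF1 lost their call as well. The log2 fold changes that turned were 0.37 for VIM, 0.34 for SLC45A3, 0.71 for MAF, -0.093 for TNIP1, -0.15 for HLA-C, -0.039 for HLA-B, 0.18 for AJUBA, 0.26 for STC2, 0.47 for IGF1, -0.10 for DUSP4, 0.062 for VEGFA, -0.077 for ALDOA, -0.26 for TM7SF2, -0.32 for SREBF1, 0.77 for MT1F, 0.44 for SLC30A1, 0.00403 for DERL1, -0.087 for CDT1, -0.020 for MT-CO3, -0.083 for MT-CO1, -0.77 for H1-2, -0.000958 for CLDN3, -0.000279 for ST14, -0.068 for LAMC1, 1.296 for RELN and -0.32 for TRGC1. SOD2 was at -0.056 with length restored. The histone genes H1-2 and H2AC6, which were not called, ranged from -0.035 to 0.567 and from -0.115 to 0.163 when 1 library was left out, and H2AC6 was at 0.00484 under RLE and 0.031 with the replicate block. Leaving out co-culture replicate 2 lost the calls of 39 genes and leaving out replicate 1 those of 29, while the filter of 3 TPM in 2 libraries lost 0.

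Replicate numbers did not pair the samples, since deviations of same-numbered libraries correlated at -0.083 to -0.005 over 8 pairs. Adding the replicate block gave 1200 rises, 1180 falls and 863 differences between lines. The filter left 16165 of 27852 genes untested, so changes in those were not examined.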
